A study of Rattus norvegicus with 6 samples.

Results

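The genes described here are 8 chemokine ligands (Ccl2, Ccl7, Ccl20, Cxcl1, Cxcl2, Cxcl12, Cxcl16 and Cx3cl1) and 2 atypical receptors (Ackr3 and Ackr4), 10 of the 20264 rows of the combined count table, which were taken by their symbols. At least 1 count was found for 9 of them, and 8 had enough counts to be tested. Chemokines are small secreted proteins that guide migrating cells along a gradient by binding G protein-coupled receptors, and they are named after the spacing of their first cysteines (CC, CXC and CX3C). Atypical receptors bind chemokines without signalling through G proteins and take them up from the surroundings, so that they shape the gradient. In the intervertebral disc, chemokines made by disc cells are known for drawing in macrophages and other leukocytes during degeneration.

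The libraries came from primary nucleus pulposus cells (NPCs) of wild type male Sprague-Dawley rats, grown from tail discs and sequenced after poly-A selection. All 6 libraries had been exposed to the oxidant tert-butyl hydroperoxide (TBHP), given to induce senescence, and 3 of them had also received recombinant FGF21 (TBHP+FGF21 group). No library without TBHP was analysed here, so the response to TBHP itself was not measured. The treatment label names FGF21 for replicate 1 of the TBHP+FGF21 group, FGF22 for replicate 2 and FGF23 for replicate 3, whereas the submitters' design text gives FGF21 for all 3, which was followed. The study describes the replicates as biological, but the labels do not say whether they came from separate animals or cultures. In bulk RNA, fewer cells of one type and less RNA per cell cannot be told apart.

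The labelled cell type was checked against its markers. Acan, the disc proteoglycan aggrecan, lay between 2506 and 4355 CPM (counts scaled to library size), and Foxf1 and Pax1 were also found in every library, whereas the notochordal markers Tbxt and Shh had no count. Others of the list were nearly without counts, with 5 counts of Krt18 and 41 of Car12 in all and 0.408 to 0.782 CPM of Col2a1. Col1a1, the collagen of fibrous tissue, was at 27868 to 42463 CPM, whereas the fibroblast marker Col1a2 had 72 counts in all (0.391 to 0.771 CPM). Whether reads of some genes went uncounted was not tested, so a low count or none is not taken as absence of a transcript. Of 12 macrophage markers, Ptprc, Adgre1, Tyrobp, Cd163 and Mrc1 had no count and Cd14 made up most of the summed level, which was 32.7 to 38.5 CPM in the TBHP group and 27.0 to 33.4 CPM in the TBHP+FGF21 group. Of the endothelial markers, Cdh5, Kdr, Tie1 and Emcn had no count, and the summed level was 38.8 to 48.9 and 43.4 to 47.7 CPM. The libraries are called TBHP-1 to TBHP-3 and FGF21-1 to FGF21-3 by their group and replicate. FGF21-2 stood apart from its own group. It lay inside the range of the 3 TBHP libraries for 64.4% of the 11426 genes tested, against 38.6% for FGF21-1 and 35.4% for FGF21-3. Values are therefore given with and without this library. Since it was singled out for its likeness to the TBHP libraries, larger differences and more calls without it follow in part from that choice (adjusted p under 0.05 in 7.5% of all genes, against 0.00875% with all 6 libraries), and they describe how far each value rests on FGF21-2. The libraries held 18277732 to 22426190 counts.

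The starts of 3 of these genes are shown because they stand for the patterns found below. Ccl7 was lower in all libraries given FGF21, and Cxcl1 and Cxcl2 are neighbours of closely related sequence on chromosome 14, of which the first had counts in all 6 libraries and the second had 2 counts in all. Each sequence runs 5′ to 3′ from 250 bases before to 50 bases after the start (RefSeq, GRCr8), with matches to the searched motifs in capitals. Windows of 9 of the 10 genes were used here, and none of Ccl2.
Ccl7 (chr10:67513845-67514144, plus strand): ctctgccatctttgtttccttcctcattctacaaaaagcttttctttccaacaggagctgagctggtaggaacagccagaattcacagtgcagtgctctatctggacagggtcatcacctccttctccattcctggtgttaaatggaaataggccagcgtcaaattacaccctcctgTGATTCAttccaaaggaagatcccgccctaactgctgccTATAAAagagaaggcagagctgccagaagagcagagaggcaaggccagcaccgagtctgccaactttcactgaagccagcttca
Cxcl1 (chr14:17479272-17479571, minus strand): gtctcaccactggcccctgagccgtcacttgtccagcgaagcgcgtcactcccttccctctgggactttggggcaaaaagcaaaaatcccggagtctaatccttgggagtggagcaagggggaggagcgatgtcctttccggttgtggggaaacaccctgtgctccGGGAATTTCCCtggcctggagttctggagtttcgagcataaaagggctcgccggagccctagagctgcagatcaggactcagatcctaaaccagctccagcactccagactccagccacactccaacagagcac
Cxcl2 (chr14:17467206-17467505, minus strand): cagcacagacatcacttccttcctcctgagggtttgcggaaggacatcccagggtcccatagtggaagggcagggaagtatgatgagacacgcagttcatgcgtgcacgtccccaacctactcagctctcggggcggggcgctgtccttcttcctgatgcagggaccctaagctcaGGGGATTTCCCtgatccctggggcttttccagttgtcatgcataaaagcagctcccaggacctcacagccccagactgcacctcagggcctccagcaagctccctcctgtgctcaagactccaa

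The capitals in Ccl7 mark an AP-1 motif (TGANTCA), 73 bases before the start, and a TATA motif (TATAAA), 34 bases before it. In Cxcl1 and Cxcl2 they mark the kappa B consensus, the motif of the NF-kB factors, which matched in 2 overlapping positions that begin 84 and 83 bases before the start of Cxcl1 and 74 and 73 bases before that of Cxcl2. Both strands were searched. Of the 9 windows, Ccl20, Cxcl1 and Cxcl2 held the kappa B consensus, Ccl7 alone held the AP-1 motif, and Ccl7, Cx3cl1 and Ackr3 held the TATA motif. Among all 33469 windows of this length, the shares were 4.18%, 7.33% and 14.2%. A CRE (TGACGTCA) was found in none of the 9 and in 1.83% of all windows. These matches describe the letters only.

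In the TBHP+FGF21 group, the CC ligands Ccl2 and Ccl7 were lower than in the TBHP group, whereas the membrane-bound ligand Cx3cl1, the CXC ligand Cxcl12 and the scavenging receptor Ackr4 were at a higher level. None of these differences passed the adjustment over all genes with all 6 libraries. By edgeR's quasi-likelihood test, 5 of the 8 tested genes had an unadjusted p under 0.05 (3 higher and 2 lower), against 8.92% of all genes tested (4.63% higher and 4.29% lower). An absolute log2 fold change above 1 together with an unadjusted p under 0.05, the threshold named in the study, was reached by Ccl2, Ccl7 and Cx3cl1, against 0.534% of all genes (0.359% higher and 0.175% lower). The groups did not overlap for the same 3 genes, against 9.9% of all genes (4.9% higher and 5% lower). None of the 8 genes had an adjusted p under 0.05, against 0.00875% of all genes (1 gene, the deacetylase Sirt1, higher, which was named after its value was seen). Cx3cl1 reached the minimum for testing through the TBHP+FGF21 group alone, since no TBHP library had 10 counts of it, so its place in these counts is a description. The same holds for Ccl7 in the other direction. It had 10 counts in all 3 TBHP libraries but in only 2 of the TBHP+FGF21 group, so it entered through the group where it was higher. The 10 genes were chosen with earlier results of these data known, so the counts above describe them and are no test.

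**Figure D1:**
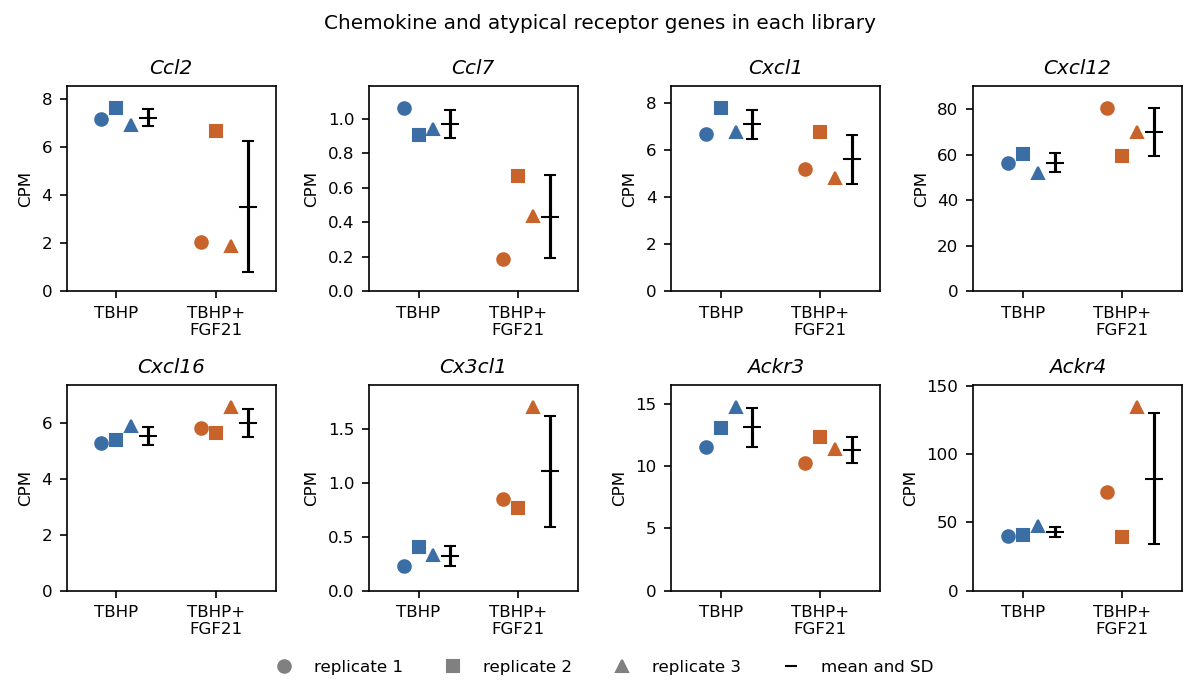
Normalized counts (CPM, linear axes from 0, a scale of its own in each panel) of the 8 tested genes in each library, with the replicate number as the symbol and the group mean and SD (n = 3) as a bar. FGF21-2 (square) lies near the TBHP libraries for Ccl2 (6.65 CPM) and Ackr4 (39.4 CPM), apart from FGF21-1 and FGF21-3.

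Ccl2 (MCP-1, ENSRNOG00000007159), the main attractant of monocytes, had 7.15, 7.62 and 6.89 CPM in TBHP-1, TBHP-2 and TBHP-3, and 2.04, 6.65 and 1.87 CPM in FGF21-1, FGF21-2 and FGF21-3. The TBHP libraries were close together, and all 3 libraries given FGF21 were below them, replicate 2 by the smallest step. The TBHP mean was 7.22 ± 0.368 CPM (SD, n = 3), against 3.52 ± 2.71 CPM (SD, n = 3) with FGF21. Its log2 fold change was -1.04 ± 0.37 SE (edgeR adjusted p 0.553). It was -1.87 ± 0.21 SE without FGF21-2 (edgeR adjusted p 5.26e-05), and the adjusted p was 0.287 or more without any other library. The unadjusted p, 0.0156 in edgeR's test with all libraries, was 0.0628 without FGF21-1 and 0.077 by the Wald test of DESeq2.

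Ccl7 (MCP-3, ENSRNOG00000000239) also attracts monocytes and is the next gene to Ccl2 on chromosome 10. It had few reads, with 19, 20 and 20 counts with TBHP alone and 4, 14 and 10 counts with FGF21. All libraries given FGF21 were again below all TBHP libraries, and replicate 2 was again the highest of its group. The levels were 0.969 ± 0.0818 CPM (SD, n = 3) with TBHP alone, against 0.432 ± 0.240 CPM (SD, n = 3), a log2 fold change of -1.15 ± 0.41 SE (edgeR adjusted p 0.553). Without FGF21-2 it was -1.58 (edgeR adjusted p 0.0491), just under the limit. Since Ccl7 reached the minimum for testing through the TBHP group, where it was higher, its values are a description. For both genes an exact two-sided permutation test on log2 CPM gave p = 0.1, the smallest that 3 libraries against 3 allow. The next genes of this chromosome 10 cluster, Ccl11 and Ccl12, had no count in any library.

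Ccl20, the ligand of the receptor CCR6 on lymphocytes and dendritic cells, had 0 counts in all 6 libraries. A count of 0 allows up to 3 counts, or 0.134 to 0.164 CPM in these libraries, and this limit covers counting error only. Ccr6 had no count either.

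Of the CXC ligands, Cxcl1 (KC or CINC-1), an attractant of neutrophils, had 6.70, 7.80 and 6.80 CPM in the TBHP group and 5.21, 6.80 and 4.84 CPM in the TBHP+FGF21 group. Replicates 1 and 3 given FGF21 were below all TBHP libraries, and replicate 2 lay among them. The log2 fold change was -0.34 ± 0.17 SE (edgeR adjusted p 0.557), and -0.49 without FGF21-2 (edgeR adjusted p 0.0995), so that Cxcl1 passed the limit in neither case. Cxcl2, its neighbour with the same kappa B consensus in the window printed above, had 1 count in TBHP-3, 1 count in FGF21-1 and none in the others, against a total of 800 counts for Cxcl1. Reads that match both genes equally well may have been left out as multimapping, which took 6.27% to 7.02% of the reads, and their part in these counts was not tested.

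Cxcl12 (SDF-1, ENSRNOG00000013589), which retains and recruits progenitor cells, had 56.5, 60.5 and 52.1 CPM in the TBHP group. The libraries given FGF21 had 80.4, 59.3 and 69.9 CPM. Replicates 1 and 3 were above all TBHP libraries, and replicate 2 was inside their range. The log2 fold change of 0.31 ± 0.12 SE (edgeR adjusted p 0.553) became 0.42 ± 0.11 SE without FGF21-2 (edgeR adjusted p 0.0236). Its signalling receptor Cxcr4 had no count in any library.

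Cxcl16, a ligand anchored in the membrane that also takes up oxidized lipoproteins, had 5.31, 5.40 and 5.91 CPM in the TBHP group and 5.83, 5.65 and 6.58 CPM in the TBHP+FGF21 group. The groups overlapped, and the log2 fold change was 0.12 ± 0.15 SE (edgeR adjusted p 0.789). It was -0.024 with the counts of 1 strand column. Its locus overlaps Zmynd15 in RefSeq, which had 27 counts in all, and reads of the overlap cannot be assigned by strand, since both strand columns hold about equal counts. Its receptor Cxcr6 had 3 counts, all in TBHP-3.

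Cx3cl1 (fractalkine, ENSRNOG00000016326), a mucin-stalked ligand that is shed from the cell surface, had 4, 9 and 7 counts with TBHP alone and 18, 16 and 39 counts with FGF21. Every library given FGF21 was above every TBHP library, and here replicate 2 was with its group. The levels were 0.320 ± 0.0926 CPM (SD, n = 3) with TBHP alone, against 1.11 ± 0.516 CPM (SD, n = 3), and FGF21-3 was the highest library at 1.70 CPM. Its log2 fold change was 1.76 ± 0.44 SE (edgeR adjusted p 0.553), the largest in size among the 8 tested genes. An exact two-sided permutation test gave p = 0.1. The log2 fold change was 1.31 without FGF21-3 and 1.97 without FGF21-2, with an adjusted p by edgeR of 0.973 and 0.0150. Since Cx3cl1 entered the test through its high group alone, these values are a description. Its receptor Cx3cr1, a marker of monocytes and microglia, had 1 count in the 6 libraries together.

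Ackr4 (CCRL1, ENSRNOG00000011478) takes up CCL19, CCL21 and CCL25. It had 40.2, 41.1 and 47.2 CPM in the TBHP group and 72.5, 39.4 and 135 CPM in the TBHP+FGF21 group. Replicates 1 and 3 given FGF21 were above all TBHP libraries, replicate 3 most, while replicate 2 was the lowest of all 6. The means were 42.8 ± 3.79 CPM (SD, n = 3) with TBHP alone, against 82.2 ± 48.3 CPM (SD, n = 3). This gave a log2 fold change of 0.94 ± 0.31 SE (edgeR adjusted p 0.553), and an exact two-sided permutation test on log2 CPM gave p = 0.4. The log2 fold change was 1.28 ± 0.17 SE without FGF21-2 (edgeR adjusted p 0.000256) and 0.39 without FGF21-3, so its size rested on these libraries. Ackr4 lies within the span of Acad11, an acyl-CoA dehydrogenase gene of fatty acid breakdown, whose log2 fold change was 0.11 ± 0.12 SE (edgeR adjusted p 0.762). None of the 3 ligands of Ackr4 had a count in any library.

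Ackr3 (CXCR7), which removes CXCL12, had 11.6, 13.0 and 14.7 CPM in the TBHP group and 10.2, 12.3 and 11.3 CPM in the TBHP+FGF21 group. The groups overlapped, and its log2 fold change of -0.22 ± 0.14 SE (edgeR adjusted p 0.600) was in the opposite direction to that of Ackr4. The remaining atypical receptor in the table, Ackr2, had no count. The related receptors Gpr182 and Ccrl2 had 228 and 7 counts in all, and Gpr182 was at 0.06 (edgeR adjusted p 0.955).

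**Figure D2:**
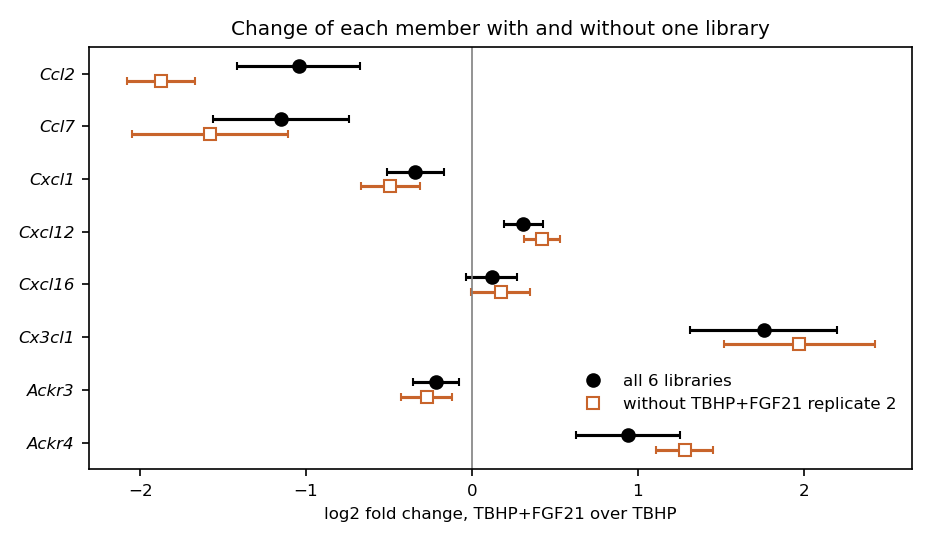
Log2 fold change of TBHP+FGF21 over TBHP (x axis, bars are the standard error of edgeR's quasi-likelihood test) for the 8 tested genes, with all 6 libraries (filled circles) and without FGF21-2 (open squares). All 8 values keep their sign and lie further from 0 without that library, Ccl2 most (-1.04 and -1.87).

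Over the 8 tested genes, leaving out FGF21-2 gave 5 genes with an adjusted p under 0.05, namely Ccl2, Ccl7, Cxcl12, Cx3cl1 and Ackr4, against 7.5% of the 11559 genes tested in that fit (3.78% higher and 3.72% lower). Cx3cl1 and Ccl7 stand in this count only through the group where each was high. The omitted library had been singled out for its likeness to the TBHP group. An unadjusted p under 0.05 was found for 6 of the 8, against 23.6% of all genes, and 4 were past the fold change threshold (Ccl2, Ccl7, Cx3cl1 and Ackr4), against 1.73% (0.813% higher and 0.917% lower). When any 1 of the other libraries was omitted, none of the 8 had an adjusted p under 0.05 by edgeR's quasi-likelihood test. An unadjusted p under 0.05 was then found for 5 without TBHP-2 (against 2.92% of all genes) and 4 without FGF21-3 (2.96%). It was found for 4 without TBHP-1 (4.41%), 4 without TBHP-3 (15.3%) and 2 without FGF21-1 (4.15%). Replicate 2 was inside the range of the TBHP libraries for 4 of the 8 genes (Cxcl1, Cxcl12, Cxcl16 and Ackr3), against 64.4% of all genes tested. Replicate 1 was inside it for 1 gene (against 38.6%) and replicate 3 for none (against 35.4%). On the log2 scale replicate 2 was 0.12 below the TBHP mean for Ccl2 and 1.72 above the mean of the others of its group.

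The ligands and receptors outside these 10 genes mostly had no count, which is not taken as absence of their transcripts. Of 27 other chemokine ligands in the table, 20 had no count, 5 had too few to be tested and 2 were tested. Cxcl10, the interferon-induced attractant of T cells, had 8, 15 and 7 counts in the TBHP group and 21, 16 and 17 in the TBHP+FGF21 group. These counts do not overlap, as for 9.9% of all genes tested, and the log2 fold change was 0.76 ± 0.38 SE (edgeR adjusted p 0.557). In the TBHP group only TBHP-2 reached 10 counts, so Cxcl10 entered the test through the TBHP+FGF21 group and its values are a description. Ccl27 was at -0.39 (edgeR adjusted p 0.749). Of those not tested, Cxcl3, the third of the Cxcl1 family, had 1, 2 and 1 counts in the TBHP group and 8, 2 and 6 in the TBHP+FGF21 group, and Cxcl17 had 39 counts in all. Cxcl6, Cxcl14 and Xcl1 had 2, 2 and 1 counts. Of 18 signalling and related receptors in the table, 10 had no count and 6 had too few to be tested, of which Ccr10 had the most with 40. The 2 tested were Gpr182 and Cxcr5, which was at -0.41 (edgeR adjusted p 0.641).

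**Figure D3:**
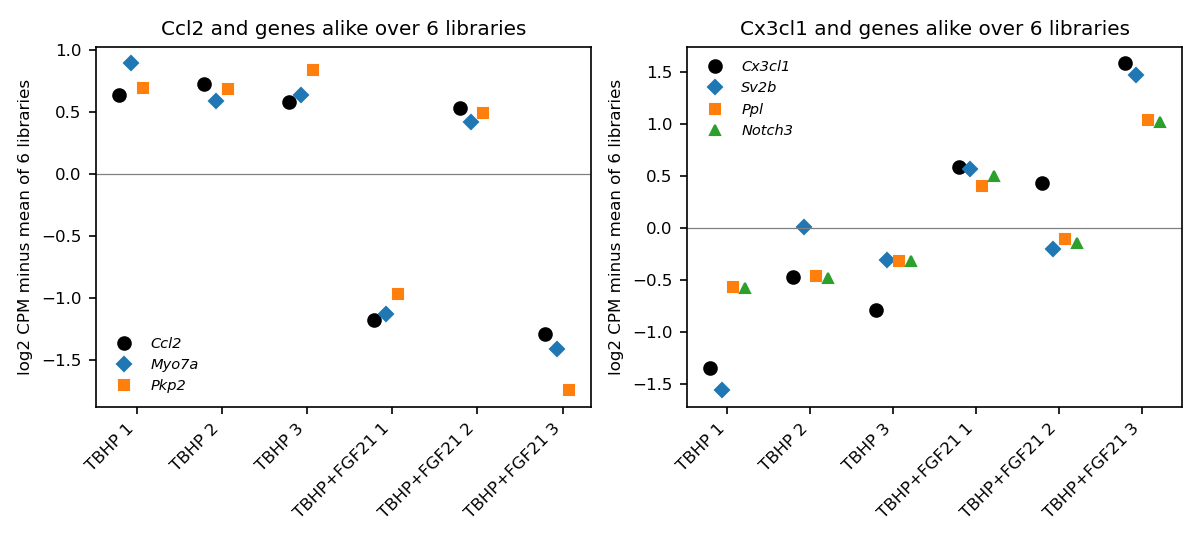
Log2 CPM minus the mean of the 6 libraries (y axis) for Ccl2 (left) and Cx3cl1 (right), with 2 and 3 genes of closely similar profile, by library (x axis). The 3 genes on the left are low in replicates 1 and 3 of the TBHP+FGF21 group and high in the other 4 libraries, and the 4 on the right are highest in replicate 3 of that group.

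Over the 6 libraries, the genes most like Ccl2 by the root mean square difference of centred log2 CPM included Myo7a, a motor protein of sensory hair cells (0.14), and Pkp2, a plaque protein of desmosomes (0.23), where the median over the 10749 genes compared was 0.86. Pkp2 had 12.3, 12.2 and 13.6 CPM in the TBHP group and 3.89, 10.7 and 2.27 CPM in the TBHP+FGF21 group, so that FGF21-1 and FGF21-3 were the lowest. This order was fixed by the choice of genes for their likeness to Ccl2. The genes most like Cx3cl1 were Sv2b, a synaptic vesicle protein (0.34), Ppl, the desmosomal protein periplakin (0.36), and Notch3, a Notch receptor (0.37), against a median of 0.85. Ackr4 was 26th of 10750 genes in likeness to Cx3cl1 (0.47). These likenesses are descriptions over 6 points that share the 2 groups and the library that stood apart.

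Of 67 tested genes on 7 lists of the chemokine pathway, 11 had an unadjusted p under 0.05 (9 higher and 2 lower), a share of 16.4% against 8.92% of all genes, and none passed the adjustment by edgeR. Their median log2 fold change was 0.07, against -0.0052 over all genes. The lists were chosen with earlier results of these data known, so their shares are a description. The count with an unadjusted p under 0.05 was 18 of 67 without FGF21-2 (26.9%, against 23.6% of all genes in that fit). It was 7 without FGF21-1 (10.4% against 4.15%) and 6 without TBHP-1 (8.96% against 4.41%). It was 3 without TBHP-2 (4.48% against 2.92%), 8 without TBHP-3 (11.9% against 15.3%) and 1 without FGF21-3 (1.49% against 2.96%).

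**Figure D4:**
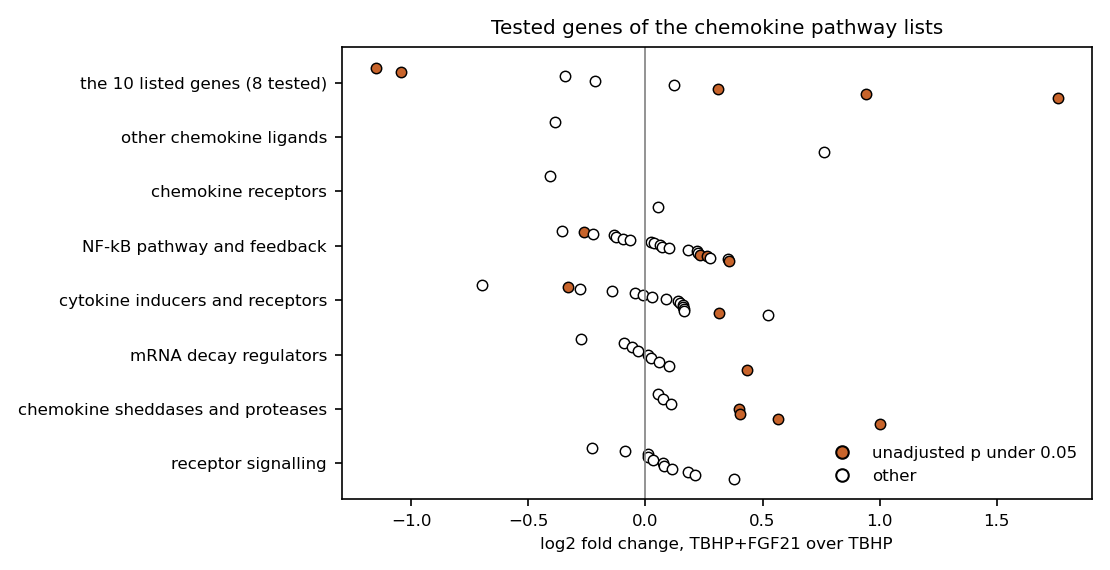
Log2 fold change of TBHP+FGF21 over TBHP (x axis) of each tested gene on the lists named on the y axis, filled where edgeR's unadjusted p was under 0.05. The 8 tested chemokine and atypical receptor genes spread from -1.15 to 1.76, and all 7 tested proteases lie above 0.

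The NF-kB pathway, which drives many chemokine genes, had 20 genes in the test with a median log2 fold change of 0.07, 13 higher and 7 lower. Of these 20, 4 had an unadjusted p under 0.05, against 8.92% of all genes. Nfkbia, the inhibitor that NF-kB itself induces, had 8.21, 7.48 and 7.59 CPM in the TBHP group and 8.62, 9.38 and 11.8 CPM in the TBHP+FGF21 group. It was higher in all 3 libraries given FGF21, with a log2 fold change of 0.36 ± 0.15 SE (edgeR adjusted p 0.553). The second inhibitor Nfkbib and the adaptor Myd88 were at 0.26 and 0.23, and the kinase Chuk was at -0.26, each with the same adjusted p. Of the 16 tested inducing cytokines and receptors (median 0.11), 2 had an unadjusted p under 0.05, against 8.92% of all genes, namely the endotoxin receptor Tlr4 at -0.33 and the shared IL-6 family receptor Il6st at 0.31. The inducers Il1a and Csf2 had no count, and Il1b and Il6 had too few to be tested. Lif, an IL-6 family cytokine, was at -0.70 with all libraries (edgeR adjusted p 0.589), where FGF21-2 was the highest of the 6 at 25.0 CPM, and at -1.49 without that library (edgeR adjusted p 0.00345). Nfkbiz, a cofactor of NF-kB, was at 0.35 and 0.53 (edgeR adjusted p 0.557 and 0.0366), and Il6st at 0.31 and 0.41 (edgeR adjusted p 0.553 and 0.0480). Lif and Nfkbiz were picked out after their values had been seen.

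Of 9 regulators of chemokine mRNA decay (median 0.01), only Zfp36l1, which binds AU-rich elements and speeds decay, had an unadjusted p under 0.05. The share over all genes was 8.92%. It had 66.9, 53.8 and 53.1 CPM in the TBHP group and 92.5, 55.2 and 87.1 CPM in the TBHP+FGF21 group. Replicates 1 and 3 given FGF21 were above all TBHP libraries. Its log2 fold change was 0.44 with all libraries and 0.64 without FGF21-2 (edgeR adjusted p 0.553 and 0.00214). All 7 tested sheddases and proteases that cut chemokines were above 0 (median 0.40), against 48.9% of all genes. An unadjusted p under 0.05 was found for 4 of them, against 8.92% of all genes. These were the collagenase Mmp13 at 0.56, the stromelysin Mmp3 at 1.00, the gelatinase Mmp2 at 0.40 and the aminopeptidase Anpep at 0.41 (edgeR adjusted p 0.553 for each). All 4 had an adjusted p under 0.05 without FGF21-2, against 7.5% of all genes in that fit. Adam10 and Adam17, the sheddases of CX3CL1 and CXCL16, were at 0.06 and 0.07 (edgeR adjusted p 0.845 and 0.804). Among 11 tested genes of receptor signalling, the smallest p belonged to Rgs16, which shortens G protein signals, at -0.23 (edgeR adjusted p 0.553).

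Levels of some cell type markers also varied between these libraries, but none of the tested markers had an adjusted p under 0.05 by edgeR with all libraries. Of 8 tested nucleus pulposus markers, 4 were higher and 4 lower (log2 fold change -0.55 to 0.56, median 0.0045). Acan, Pax1 and Sox9, a factor of cartilage cells, had an unadjusted p under 0.05 (against 8.92% of all genes). They were at 0.40, 0.54 and 0.56 (edgeR adjusted p 0.553 for each), and the groups overlapped for each. The keratin Krt8 was at -0.43 (edgeR unadjusted p 0.0516, adjusted p 0.553). Its groups did not overlap, as for 9.9% of all genes tested (5% lower). Krt8 was named here though its p was above the limit used for naming genes. The summed level of the list was 2771 to 3218 CPM in the TBHP group and 3142 to 4820 CPM in the TBHP+FGF21 group. Pax1 had 348, 224 and 385 CPM in replicates 1, 2 and 3 given FGF21. Ackr4 had the same order in these libraries, and so had Acan, Sox9 and Pdgfra. Over all 6 libraries the orders of Pax1 and Ackr4 differed. Of 11 tested annulus and fibroblast markers, Pdgfra, a receptor of stromal cells, was at 0.39 and Scx, a tendon factor, at -0.39. Both had an unadjusted p under 0.05, against 8.92% of all genes, with overlapping groups (edgeR adjusted p 0.553 for each). The summed level of this list was 42991 to 47510 and 32694 to 44933 CPM, of which Col1a1 made up the larger part. No macrophage or endothelial marker tested (2 and 3 genes) had an unadjusted p under 0.05. Without FGF21-2, Acan, Pax1, Sox9, Foxf1, Pdgfra and Scx had an adjusted p under 0.05 by edgeR, against 7.5% of all genes in that fit. The part of such shifts in the chemokine values was not tested.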

How the data were processed

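The authors deposited estimated counts in a combined table by gene symbol, which is raw and whole apart from 22 rows rounded up here, and whole counts by Ensembl identifier for each library, with a column for each strand. STAR and featureCounts are named in the submitters' processing notes. The genome build and annotation are not given in the sources used here. Symbols and identifiers were linked by identical counts in all 6 libraries (13204 symbols, 8 of the 10 genes).

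The 10 genes and the pathway and marker lists were chosen with earlier results of these data known. The whole table was fitted with edgeR 4.0.16 in R 4.3.3 (TMM, filterByExpr with a minimum count of 10 and a minimum total of 15, glmQLFit and glmQLFTest, condition only), with Benjamini-Hochberg adjustment over 11426 genes. CPM are counts scaled to the library size after TMM. Standard errors are the log2 fold change over the square root of F. Permutation tests used log2 CPM with a prior count of 2. The fits were tested on simulated counts. Alternatives used DESeq2 1.42.0, limma 3.58.1, other counts, scalings and filters, the replicate number as a block, and the omission of each library. All 10 genes were named, with every tested gene of the other ligands and receptors, up to 4 genes of smallest unadjusted p under 0.05 in each other list or else the first, and the 3 genes most like Ccl2 and Cx3cl1 among those with a mean of at least 1 CPM, of which 1 is not reported here. Levels were not compared between genes, since no transcript lengths were used.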

Additional observations from a re-analysis of the deposited data

How the results depend on the processing

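Among the 8 genes tested in the reported fit, every log2 fold change that could be fitted kept its sign in all alternatives, except that of Cxcl16. That was -0.024 with the counts of strand column 4. Cxcl2, with 2 counts in all, was fitted only with limma on log2 counts (0.0019) and without a filter on low counts (-0.049). Ccl7 and Cx3cl1 had too few counts to be fitted with strand column 4 or with a mean of at least 50 counts. None of the 10 genes had an adjusted p under 0.05 in an alternative that kept all libraries. The number with an unadjusted p under 0.05, 5 in the reported fit, was 3 with strand column 4 and with the mean of 50 counts, from which these 2 genes are missing. It was also 3 with the Wald test of DESeq2, where Ccl2 and Ackr4 lost the call, and with limma on log2 counts (pseudocount 1), where Cxcl12 and Ackr4 did. The number past the fold change threshold, 3 in the reported fit, was 1 with strand column 4, 1 with the mean of 50 counts and 2 with DESeq2. There Ccl2, at -1.03, had an unadjusted p of 0.077 by the Wald test. For the pathway lists, 11 in the reported fit, it was 4 with limma on log2 counts.

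On omission of single libraries, the number of the 10 genes with an unadjusted p under 0.05 lay between 2 (without FGF21-1) and 6, the number past the threshold between 2 and 4, the number with an adjusted p under 0.05 between 0 and 5 (without FGF21-2), and the number on the pathway lists between 1 and 18. The share of all genes with an unadjusted p under 0.05 lay between 2.92% (without TBHP-2) and 23.6% (without FGF21-2). An adjusted p under 0.05 was found for 7.5% of all genes without FGF21-2. The log2 fold change lay between -1.87 and -0.73 for Ccl2, -1.58 and -0.80 for Ccl7, 0.21 and 0.42 for Cxcl12, 1.31 and 1.97 for Cx3cl1, and 0.39 and 1.28 for Ackr4. Their causes were not tested.

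With the replicate number as a block, 5 genes had an unadjusted p under 0.05, 3 were past the threshold and none had an adjusted p under 0.05, and 14 genes of the pathway lists had an unadjusted p under 0.05. The deviations of same-numbered libraries from their group means correlated at -0.12, 0.21 and 0.15 across genes. Replicate 2 of the TBHP group correlated best with its own number, and replicates 1 and 3 did not. Deviations within a group are not independent of each other, so these values cannot decide whether same-numbered libraries were paired. Over all genes, 1599 had an unadjusted p under 0.05 with the block and 1019 without it. An adjusted p under 0.05 was found for 1 gene in the reported fit, 2 with the block, 4 with DESeq2, 5 without a filter on low counts, 0 with limma-voom and 867 without FGF21-2. Ccl7 and Cx3cl1, with 87 and 93 counts in all, are limited by depth.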
